A study of Mus musculus with 14 samples.

Results

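MHC class I molecules carry peptides cut from a cell's own proteins to its surface, where CD8 T cells read them. The 10 genes described here are H2-K1, H2-D1, H2-T23, B2m, Tap1, Tap2, Tapbp, Psmb8, Psmb9 and Nlrc5, picked by symbol for their known roles in that pathway out of 77981 genes in the deposited count table. All 10 are in the table with counts in all 3 genotypes, and 9 had enough counts to be tested, the exception being Nlrc5. H2-T23 passed the filter on low counts with only 8 counts in WT, so counts over the 9 tested members describe them and support nothing further.

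Expression was measured by 3′ end sequencing of messenger RNA from 14 liver tumours of mice, each tumour driven by plasmids for c-Myc and β-catenin that were injected hydrodynamically. The 5 wild-type tumours are called WT, the 5 tumours from mice without Cdk18 are called CDK18KO, and the 4 tumours from mice without both Cdk18 and Cdk16 are called DKO. Cdk16 and Cdk18 encode related protein kinases, and the series title links them to nuclear pores, DNA repair and hepatocellular carcinoma. Per the labels' protocols, floxed Cdk16 was deleted in tumours already formed, in Cre-ERT2 mice given tamoxifen at 75 mg/kg on 5 days, and tissue was taken 10 days after treatment. Cre-ERT2 controls were given tamoxifen too, per the same protocols, and tumours were taken at 15 mm, at signs of distress or at 8 weeks. The promoter that drives Cre-ERT2, the strain of the mice, and whether the WT and CDK18KO mice carried Cre-ERT2 and were given tamoxifen are not given in the sources used here. Loss of Cdk16 therefore cannot be told apart from Cre and tamoxifen in the comparisons of DKO.

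A class I molecule consists of a heavy chain and β2-microglobulin. The proteasome cuts proteins into peptides, the TAP transporter moves the peptides into the endoplasmic reticulum, and tapasin helps load them onto the heavy chain. Interferon γ switches on most of this pathway through IRF1 and the regulator NLRC5, and hepatocytes at rest are known for low class I levels.

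Of the 10 genes, 8 lie on chromosome 17 within 2.12 Mb of the mouse MHC region (17:33915899-36032855 in GRCm38), with B2m on chromosome 2 and Nlrc5 on chromosome 8. Psmb9, Tap1, Psmb8 and Tap2 sit side by side within 34.3 kb (17:34181987-34216321). Tap1 and Psmb9 run in opposite directions from a shared start region, so that their 300-base promoter windows have 275 bases in common. The 250 bases before the start of the 3 members with the highest counts are printed because these genes carry most of the signal. The sequences are from RefSeq on GRCm38.p6, at chr17:34000348-34000597 on the minus strand for H2-K1, chr17:35262844-35263093 on the plus strand for H2-D1 and chr2:122147437-122147686 on the plus strand for B2m. Capitals mark, in this order along the sequence, the enhancer A letters GGGGATTCC (H2-K1 and H2-D1), the interferon regulatory factor core AANNGAAA on either strand (as TTTCACTT in H2-K1 and H2-D1), and the pair TGACG and ATTGG, the cores of the X2 and Y boxes.
H2-K1: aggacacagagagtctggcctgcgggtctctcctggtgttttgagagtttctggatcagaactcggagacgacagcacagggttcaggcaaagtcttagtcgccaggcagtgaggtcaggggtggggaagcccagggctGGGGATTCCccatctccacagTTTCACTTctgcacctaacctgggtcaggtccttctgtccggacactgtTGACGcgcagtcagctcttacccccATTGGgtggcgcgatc
H2-D1: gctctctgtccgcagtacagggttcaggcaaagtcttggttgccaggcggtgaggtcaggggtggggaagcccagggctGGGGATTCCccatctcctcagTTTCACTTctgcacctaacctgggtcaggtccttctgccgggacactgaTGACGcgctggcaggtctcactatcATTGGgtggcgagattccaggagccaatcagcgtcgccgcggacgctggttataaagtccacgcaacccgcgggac
B2m: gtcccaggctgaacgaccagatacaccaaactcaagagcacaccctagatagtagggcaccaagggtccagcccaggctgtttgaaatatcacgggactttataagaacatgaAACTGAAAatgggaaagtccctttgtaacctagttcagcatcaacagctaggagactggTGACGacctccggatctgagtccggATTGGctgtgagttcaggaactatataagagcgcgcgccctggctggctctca

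All 3 promoters hold TGACG followed by ATTGG 20 bases later. With both strands searched and a gap of 15 to 25 bases, chosen after these sequences were seen, 0.403% of the 27025 RefSeq promoters of the same length hold that pair. TGACG alone is in 17.9% of them and ATTGG alone in 34.5%. The enhancer A letters are in 0.218% of all promoters, and the interferon regulatory factor core in 21.6%, among them those of 4 members (H2-K1, H2-D1, H2-T23 and B2m). The letters TTCNNNGAA, the interferon γ-activated sequence (GAS), are in 7.2% of all promoters and, of the members, in that of Psmb8. Promoters were found for 8 members, and those of Tap2 and Nlrc5 were not analysed here. A match in letters describes the sequence only.

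Total counts per library ran from 1442417 (WT 5) to 6068209 (WT 2), and the 10 genes took between 0.0194% (WT 1) and 0.256% (DKO 2) of them. H2-K1, B2m and H2-D1 held 84.1 to 96.7% of the counts of the 10 genes in each library. Levels are given as CPM, counts scaled to a common library total with TMM factors, which correct for a library's composition. With 3′ counting the length of a transcript should matter little to its count. Whether CPM is otherwise comparable between genes, as where reads are hard to assign, was not tested. Differences are log2 fold changes from edgeR's quasi-likelihood test on all 13997 genes kept by the filter, called at a Benjamini-Hochberg adjusted p under 0.05. The labels call the samples biological replicates. Cdk18 had a fitted difference from WT of -1.24 (SE 0.63, edgeR adjusted p = 0.338) for CDK18KO and -1.26 (SE 0.68, adjusted p = 0.331) for DKO, and Cdk16 of -0.67 (SE 0.35, adjusted p = 0.310) for DKO. It is not known whether the counted ends lie in the deleted parts, so these values do not test the labels. In bulk tumours, fewer cells of a type and less RNA per cell cannot be told apart. Y-linked genes were above 100 CPM in 3 libraries, WT 3, WT 5 and CDK18KO 1, so their level was not balanced over the groups. WT 1 (33.0 CPM) and WT 4 (18.3 CPM) lay between these and the rest, which were at 7.41 CPM or less. The sex of each mouse was not settled by these values. Reads cannot be assigned with certainty between H2-K1 or H2-D1 and the H2-Q genes: of the 100-base windows near their transcript ends, 2.1% and 3.5% also occur in other genes.

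Set against WT, the CDK18KO tumours show expression after loss of Cdk18 alone. Each of the 9 tested members had a higher fitted level in CDK18KO, by log2 fold changes from 1.09 (H2-K1) to 2.91 (H2-T23), with Psmb9 at 2.73, Tapbp at 2.57 and Tap2 at 2.29. None of the 9 passed edgeR's adjusted test (adjusted p 0.162 to 0.239), where 0.00714% of all genes did. At an unadjusted p under 0.05 all 9 were higher, against 11.6% of all genes higher and 5.31% lower. DESeq2 called 3 of them, Tap2, Tapbp and Psmb9, against 3.46% of all genes called higher, and limma voom called 0. The share of all genes with a fitted value above 0 was 49.4%. No member was without overlap between the groups, which was so for 1.1% of all genes in the higher direction. The median over the 9 was 1.98, against -0.0097 over all genes tested. Without CDK18KO 2, the library with the highest levels of that group for most members, 4 members were at an unadjusted p under 0.05, where 6.83% of all genes were higher at that level, and the median was 1.44.

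DKO tumours set against WT show expression after loss of both kinases, with Cdk16 loss not told apart from Cre and tamoxifen. Again each of the 9 tested members had a higher fitted level, by 1.82 (H2-D1) to 3.28 (H2-T23), with H2-K1 at 2.11, B2m at 2.29 and Tapbp at 2.60. None passed edgeR's adjusted test (adjusted p 0.146 to 0.160), with 0.00714% of all genes called. At an unadjusted p under 0.05 all 9 were higher, where 13.7% of all genes were higher and 5.22% lower. DESeq2 called 6 of them (H2-K1, H2-D1, B2m, Tap1, Tapbp and Psmb8), against 5.3% of all genes called higher, and limma voom called 0. For 3 members, H2-K1, H2-D1 and B2m, every DKO library was above every WT library, which held for 3.04% of all genes. The median was 2.29 against -0.04 over all genes, of which 47.9% had a value above 0. H2-K1 stood 16th of 13997 genes by p in this comparison (unadjusted p = 0.000378 by edgeR).

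DKO tumours set against CDK18KO show what differed where Cdk16 was lost as well. That loss cannot be told apart from Cre and tamoxifen here. The fitted differences were smaller, from -0.38 (Tap2) to 1.03 (H2-K1), with 7 of the 9 above 0, against 48.2% of all genes. None passed edgeR's adjusted test (adjusted p 0.803 to 0.999), as did 0% of all genes, and limma voom called 0, as did DESeq2, against 0.674% called higher. At an unadjusted p under 0.05 only H2-K1 was higher, where 3.94% of all genes were higher and 1.86% lower. Without CDK18KO 2 there were 2 such members, with 4.58% of all genes higher at that level, and without CDK18KO 1, 3, 4 or 5, DKO 1 or DKO 2 there were 0. All 9 overlapped between the groups, and 0.872% of all genes were higher without overlap. The median was 0.47, against -0.02 over all genes. It was 0.18 without DKO 1, 0.25 without DKO 2, 0.73 without DKO 4, 0.79 without CDK18KO 2 and 0.83 without DKO 3. Both knockout groups were compared with the same WT libraries, so their differences from WT are not independent of each other.

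**Figure D1:**
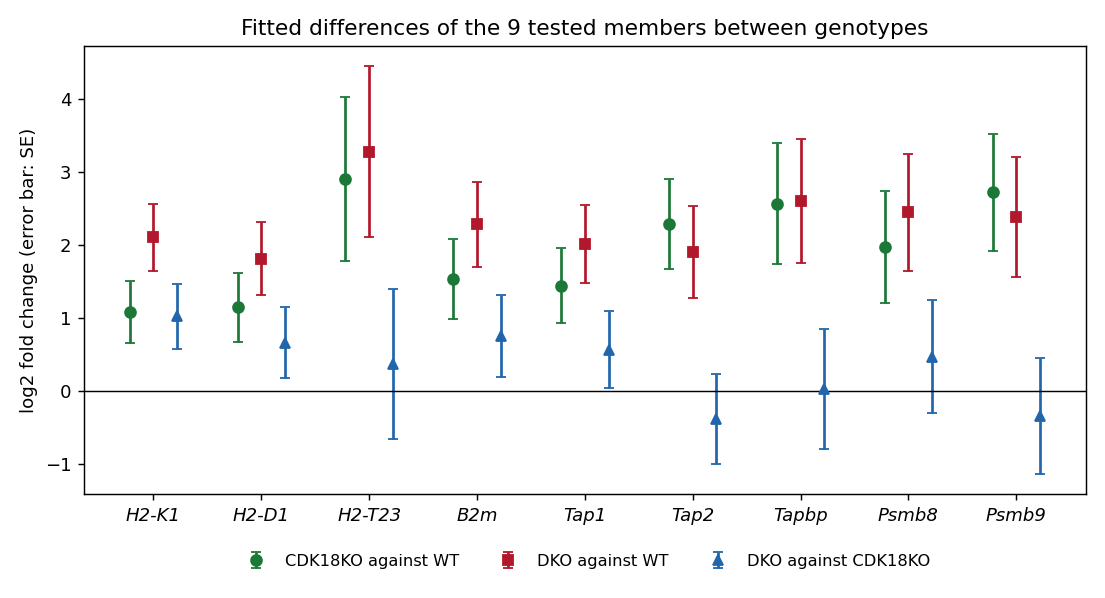
Fitted log2 fold change (vertical axis) of the 9 tested members in the 3 comparisons, with bars of 1 SE from edgeR. Both comparisons with WT lie above 0 for every gene shown, from 1.09 to 3.28, while DKO against CDK18KO runs from -0.38 to 1.03.

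H2-K1 and H2-D1 encode the classical heavy chains H-2K and H-2D, which present peptides to CD8 T cells. H2-K1 was at 77.9, 192, 160.4, 191 and 199 CPM in WT 1 to 5, at 209, 748, 189, 315 and 279 CPM in CDK18KO 1 to 5. In DKO 1 to 4 it was at 785, 1194, 320.1 and 535 CPM. The DKO libraries all lay above WT, while CDK18KO 3 was among the WT libraries and CDK18KO 2 stood far above the rest of its group. Means were 164 ± 50.3 (SD, n = 5), 348 ± 229 (n = 5) and 709 ± 375 CPM (n = 4). The log2 fold change was 2.11 (SE 0.46, edgeR adjusted p = 0.146) for DKO against WT and 1.09 (SE 0.43, adjusted p = 0.224) for CDK18KO against WT, and the second was 0.59 without CDK18KO 2. Between DKO and CDK18KO it was 1.03 (SE 0.45, adjusted p = 0.803), the largest such difference among the members.

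H2-D1 was at 33.4, 83.1, 83, 76.6 and 67.1 CPM in WT 1 to 5, at 92.9, 243, 86.3, 285 and 54.7 CPM in CDK18KO 1 to 5. In DKO 1 to 4 it was at 305, 378, 109 and 175 CPM. Again the DKO libraries were all above WT, and CDK18KO 5 was inside the WT range. The difference was 1.82 (SE 0.50, edgeR adjusted p = 0.146) for DKO against WT and 1.15 (SE 0.47, adjusted p = 0.239) for CDK18KO against WT. The balance between the chains can be read within a library as the share of H2-D1 in the summed counts of H2-D1 and H2-K1, which needs no scaling. That share was 29.6 ± 3.20% in WT, 30.1 ± 11.4% in CDK18KO and 25.5 ± 1.75% in DKO. In CDK18KO it ran from 16.4% (CDK18KO 5, 95% Wilson interval 13.9 to 19.3%) to 47.5% (CDK18KO 4, 45.2 to 49.8%), a wider spread than the 25.2 to 34.1% of WT. The difference between DKO and WT had an exact permutation p = 0.0556 (two-sided, adjusted p = 0.159 over 15 tests of shares). Wilson intervals cover counting error only.

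H2-T23 encodes the non-classical heavy chain Qa-1, a ligand of NKG2A receptors on natural killer cells. It was scarce, with 8 counts over the WT libraries, 40 over CDK18KO and 35 over DKO. Its CPM was 0 in WT 3, WT 4 and DKO 3, at most 0.824 in WT, and highest in DKO 2 (11.3) and CDK18KO 2 (9.04). The ratio of scaled counts to WT was 6.62 in CDK18KO (exact 95% interval 3.06 to 16.4) and 7.70 in DKO (3.51 to 19.2), with intervals that cover counting error only. Across replicates the fitted differences were 2.91 (SE 1.13, edgeR adjusted p = 0.216) and 3.28 (SE 1.17, adjusted p = 0.160). An antisense gene, A930015D03Rik, overlaps H2-T23.

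B2m encodes β2-microglobulin, the light chain of every class I molecule. It was at 62.3, 222, 120.2, 112 and 237 CPM in WT 1 to 5, at 337, 999.8, 176, 431 and 238 CPM in CDK18KO 1 to 5. In DKO 1 to 4 it was at 799.5, 1415, 254 and 471 CPM. DKO lay wholly above WT, although DKO 3 exceeded WT 5 by little, and CDK18KO 3 was within WT. Means were 151 ± 75.4 (SD, n = 5), 436 ± 330 (n = 5) and 735 ± 506 CPM (n = 4). DKO was above WT by 2.29 on the log2 scale (SE 0.58, edgeR adjusted p = 0.146). For CDK18KO the difference from WT was 1.53 (SE 0.55, edgeR adjusted p = 0.190), or 0.96 without CDK18KO 2. H2-K1 made up 53.5 ± 7.42% of the summed H2-K1 and B2m counts in WT, 45.8 ± 6.73% in CDK18KO and 51.1 ± 4.35% in DKO, and the exact permutation p was 0.135 or more in each comparison.

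**Figure D2:**
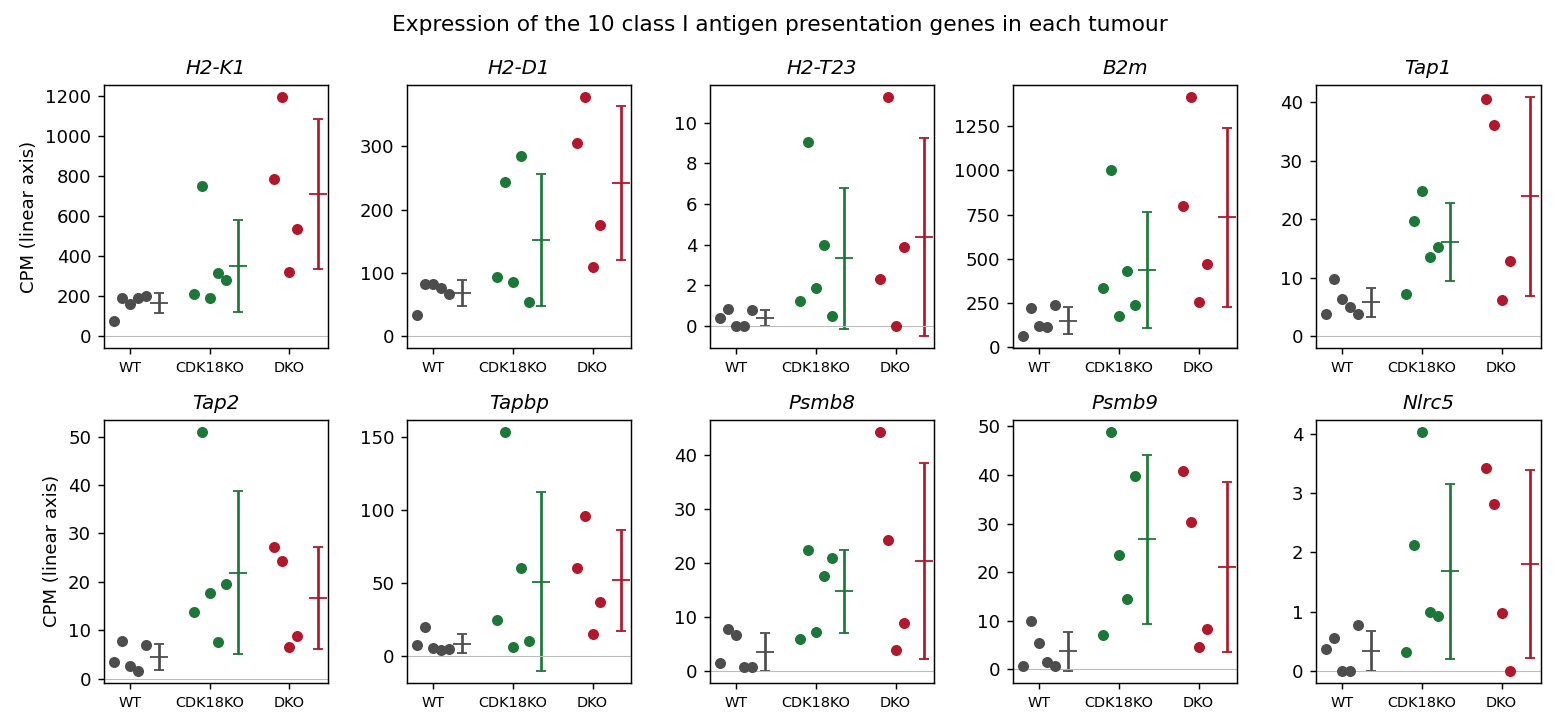
CPM (vertical axes, linear, each with its own range) of the 10 genes in every tumour, 5 WT, 5 CDK18KO and 4 DKO, with 1 point per library and a bar for the mean ± SD. H2-K1, H2-D1 and B2m are the genes whose DKO points all lie above WT, and for 7 of the 10 the highest CDK18KO point is CDK18KO 2.

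Tap1 and Tap2 encode the paired subunits of the peptide transporter, and Tapbp encodes tapasin. Tap1 was at 3.71, 9.75, 6.40, 5.04 and 3.86 CPM in WT 1 to 5, at 7.14, 19.7, 24.8, 13.5 and 15.3 CPM in CDK18KO 1 to 5. In DKO 1 to 4 it was at 40.6, 36.1, 6.15 and 12.8 CPM. WT 2 was above the lowest library of each knockout group, and WT 3 was above DKO 3. The difference was 2.02 (SE 0.54, edgeR adjusted p = 0.146) for DKO and 1.45 (SE 0.51, adjusted p = 0.190) for CDK18KO. Tap2 was at 1.58 to 7.69 CPM in WT, with 7.60, 13.7, 17.7, 19.5 and 51.1 CPM in CDK18KO and 6.47, 8.89, 24.2 and 27.1 CPM in DKO, each in rising order. WT 2 was above the lowest library of each knockout group, and WT 5 was above DKO 3. The difference was 2.29 (SE 0.61, edgeR adjusted p = 0.162) for CDK18KO and 1.91 (SE 0.63, adjusted p = 0.148) for DKO. Tap2, with Psmb9, is 1 of the 2 tested members that had a higher fitted level in CDK18KO than in DKO, by an amount within 1 SE.

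Tapbp was at 7.42, 19.9, 5.24, 4.10 and 4.63 CPM in WT 1 to 5, at 24.2, 154, 6.21, 60.1 and 10.2 CPM in CDK18KO 1 to 5. DKO 1 to 4 stood at 60.3, 95.8, 14.9 and 36.7 CPM. Within CDK18KO the highest library was 24.7 times the lowest, the widest ratio of any member in a group without a library at 0. WT 2 was above 2 of the CDK18KO libraries and 1 of the DKO libraries. The difference was 2.57 (SE 0.82, edgeR adjusted p = 0.168) for CDK18KO, or 1.54 without CDK18KO 2 and 1.44 by limma voom with sample weights, and 2.60 (SE 0.85, adjusted p = 0.147) for DKO. Zbtb22 overlaps Tapbp on the same strand, so reads there may be hard to assign.

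Psmb8 and Psmb9 encode the interferon-inducible proteasome subunits β5i and β1i, which take the places of the standard subunits encoded by Psmb5 and Psmb6. Psmb8 was at 1.48, 7.83, 6.70, 0.630 and 0.771 CPM in WT 1 to 5, at 5.90, 22.3, 7.14, 17.5 and 20.9 CPM in CDK18KO 1 to 5. DKO 1 to 4 stood at 44.3, 24.2, 3.88 and 8.89 CPM. Psmb9 was at 0.742, 10.03, 5.53, 1.58 and 0.771 CPM in WT 1 to 5, at 7.14, 48.9, 23.6, 14.5 and 39.9 CPM in CDK18KO 1 to 5. DKO 1 to 4 stood at 40.9, 30.4, 4.53 and 8.34 CPM. For both genes WT 2 and WT 3 were the highest WT libraries. For Psmb8, WT 2 was above CDK18KO 1, CDK18KO 3 and DKO 3, and WT 3 was above CDK18KO 1 and DKO 3. For Psmb9, WT 2 was above CDK18KO 1, DKO 3 and DKO 4, and WT 3 was above DKO 3. The differences from WT in CDK18KO were 1.98 (SE 0.77, edgeR adjusted p = 0.216) for Psmb8 and 2.73 (SE 0.80, adjusted p = 0.162) for Psmb9. In DKO they were 2.45 (SE 0.80, edgeR adjusted p = 0.147) and 2.39 (SE 0.82, adjusted p = 0.154).

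For the standard subunits, mean CPM in WT, CDK18KO and DKO was 20.5, 25.7 and 19.1 for Psmb5, 232, 245 and 198 for Psmb6, and 150.4, 157 and 145 for Psmb7, with fitted differences from WT between -0.23 and 0.32. The share of an inducible subunit in the summed counts of a pair can be read within each library. Psmb8 made up 8.0, 19.9, 17.7, 5.41 and 6.25% of Psmb8 plus Psmb5 in WT 1 to 5. CDK18KO 1 to 5 had 16.8, 63.6, 19.3, 37.6 and 42.9%, and DKO 1 to 4 had 64.3, 61.4, 21.4 and 28.6%. Every DKO library was above every WT library, and 2 CDK18KO libraries, CDK18KO 1 and CDK18KO 3, were within the range of WT. The means were 11.5 ± 6.83%, 36 ± 19.1% and 43.9 ± 22.1%, with an exact permutation p = 0.00794 for DKO against WT (two-sided, adjusted p = 0.0595) and p = 0.0397 for CDK18KO against WT (adjusted p = 0.149). A p of 0.00794 is the smallest that 5 libraries against 5 or 4 can give, and neither value passed the adjusted threshold over the 15 tests.

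For Psmb9 the share in Psmb9 plus Psmb6 was 0.332, 3.39, 1.69, 0.896 and 0.490% for WT 1 to 5. CDK18KO 1 to 5 had 4.37, 23.1, 8.89, 4.84 and 9.59%, and DKO 1 to 4 had 11.4, 13.2, 3.13 and 5.86%. Here every CDK18KO library was above every WT library, and DKO 3 was just below WT 2. The means were 1.36 ± 1.25% in WT and 8.40 ± 4.70% in DKO, and the CDK18KO mean was 8.79 percentage points above that of WT, with an exact permutation p = 0.00794 for CDK18KO against WT (adjusted p = 0.0595) and p = 0.0159 for DKO against WT (adjusted p = 0.0795). Psmb10, the third inducible subunit gene, outside the 10, made up 5.71 to 28.5% of Psmb10 plus Psmb7 in WT, 10.4 to 42.7% in CDK18KO and 10.2 to 33.9% in DKO. Its exact permutation p was 0.0635 (adjusted p = 0.159) for CDK18KO against WT and 0.143 (adjusted p = 0.268) for DKO against WT. Between the knockout groups the 3 shares had p = 0.484 or more by the exact permutation test. Counts of Psmb8 in WT were small, from 1 count in WT 5 to 57 in WT 2, so that the Wilson interval in WT 5 was 1.11 to 28.3%.

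**Figure D3:**
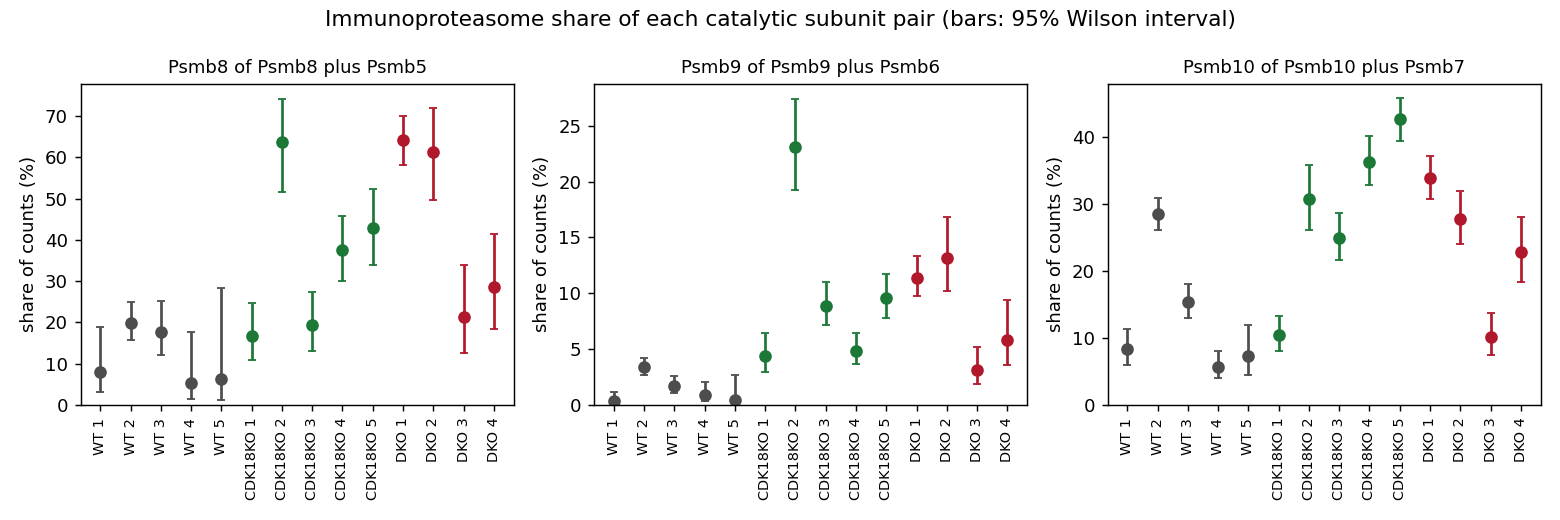
Share (%) of the inducible subunit in the summed counts of each subunit pair, 1 point per library with its 95% Wilson interval, which covers counting error only. Psmb8 takes 5.41 to 19.9% of its pair in WT, 16.8 to 63.6% in CDK18KO and 21.4 to 64.3% in DKO. Psmb9 takes 0.332 to 3.39% in WT, 4.37 to 23.1% in CDK18KO and 3.13 to 13.2% in DKO. Psmb8 in CDK18KO, Psmb9 in DKO and Psmb10 in both knockout groups overlap WT.

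Nlrc5 encodes the transactivator that binds class I promoters together with factors on the X and Y boxes. It had 6 counts over the WT libraries, 23 over CDK18KO and 20 over DKO, below the filter, and lay at 0 in WT 3, WT 4 and DKO 4. The highest libraries were CDK18KO 3 (4.04 CPM), DKO 1 (3.43 CPM) and DKO 2 (2.82 CPM), and the groups overlapped. The ratio of scaled counts to WT was 5.08 in CDK18KO (exact 95% interval 2.01 to 15.2) and 5.86 in DKO (2.27 to 17.9). In a fit without the filter the differences were 2.27 (SE 1.01, edgeR adjusted p = 0.366) and 2.41 (SE 1.05, adjusted p = 0.357).

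The members followed one another across libraries. When the 9 tested members are standardised and averaged, DKO 2 was highest, then CDK18KO 2, DKO 1, CDK18KO 4 and DKO 4, and WT 1 was lowest. WT 2 ranked above DKO 3, which was the lowest of the DKO libraries for each of the 9 tested members. Over the 14 libraries Pearson's r between pairs of members ran from 0.564 (H2-D1 with Tap2) to 0.954 (H2-K1 with B2m). These values share the libraries, their depth and the genotype groups, and are given as a description.

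The 10 genes outside the list whose log2 CPM followed that average most closely over the 14 libraries were Nat8f2 (r = 0.974), Acad11 (0.969), Cideb (0.967), Mavs (0.967), Gpt (0.966), Pklr (0.963), Ldhd (0.961), Inhbc (0.960), Tmprss6 (0.960) and Lactb (0.959). Gpt (alanine aminotransferase), Pklr (liver pyruvate kinase) and Tmprss6 (the hepcidin regulator matriptase-2) are known as liver genes, and Mavs is the adaptor of cytosolic RNA sensing. Their differences from WT in DKO were 3.56 for Gpt, 3.88 for Pklr, 3.73 for Tmprss6 and 1.31 for Mavs.

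Most hepatocyte markers were higher where the members were higher. Of 15 tested, 13 were above WT in CDK18KO, 8 of them at an unadjusted p under 0.05 by edgeR, and 15 were above WT in DKO, 13 of them at that level. DESeq2 called 5 and 11 of them higher, against 3.46% and 5.3% of all genes. By edgeR, 11.6% and 13.7% of all genes were higher at an unadjusted p under 0.05. The 2 markers lower in CDK18KO, named after their values were seen, were Pck1 at -1.90 (-0.91 without WT 2) and Serpina1c at -0.40 (1.71 without WT 2). In CDK18KO 2 and CDK18KO 4, both high for the members, Pck1 was at 7.45 and 5.62 CPM and Serpina1c at 5.85 and 0.991 CPM. The summed level of the 15 hepatocyte markers in the table was 99.01 to 2897 CPM in WT, 664 to 9345 CPM in CDK18KO and 1169 to 17800 CPM in DKO. The 5 libraries highest for the members (DKO 2, CDK18KO 2, DKO 1, CDK18KO 4 and DKO 4) were also the 5 highest for hepatocyte markers, and WT 1 was lowest for both. With the mean of the hepatocyte markers as a covariate in the edgeR fit, the median over the members was 0.79 in CDK18KO against WT and 0.46 in DKO against WT. In that fit 2 members and 0 members were at an unadjusted p under 0.05, where 2.38% and 1.14% of all genes were higher at that level. H2-K1 differed by 0.68 (SE 0.43, edgeR adjusted p = 1.0) between DKO and WT.

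**Figure D4:**
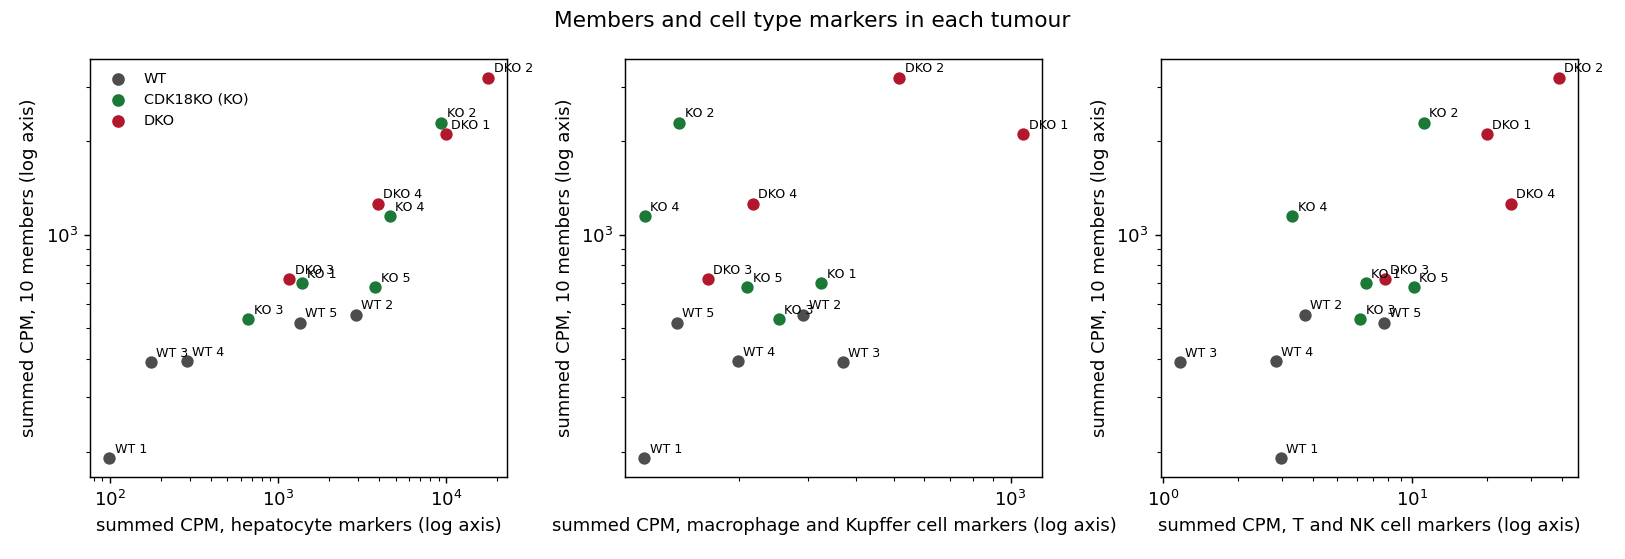
Summed CPM of the 10 genes (vertical axes, log) against summed CPM of hepatocyte, macrophage, and T and NK cell markers (horizontal axes, log), 1 point per library. Against hepatocyte markers the points run from WT 1 (191 CPM of the 10 genes) to DKO 2 (3213 CPM). CDK18KO 2 and CDK18KO 4 are high for the 10 genes at low macrophage marker levels (140 and 114 CPM). DKO 1 and DKO 2 are high for both, with the highest macrophage marker levels (1080 and 516 CPM).

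Immune cells also carry class I genes, and their markers were read in the same libraries. T and NK cell markers, 19 genes, summed to 1.16 to 7.71 CPM in WT, 3.30 to 11.2 CPM in CDK18KO and 7.77 to 38.9 CPM in DKO, from 4 to 70 counts per library, and none had enough counts to be tested. Of the 19, 8 were at 0 over all WT libraries, among them Cd3e, Cd3g and Ncr1. Macrophage and Kupffer cell markers summed to 114 to 369 CPM in WT, 114 to 325 CPM in CDK18KO and 166 to 1080 CPM in DKO. All 11 tested were higher in DKO than in WT, 4 of them at an unadjusted p under 0.05 by edgeR, and 5 of 11 were higher in CDK18KO, 0 of them at that level. Dendritic cell markers, which include class II genes, summed to 11.1 to 34.7, 14.4 to 128 and 23 to 148 CPM in the same order. Of 6 tested, 4 were higher in CDK18KO and 5 in DKO at an unadjusted p under 0.05 by edgeR, DESeq2 called 1 and 4, and the medians were 1.76 and 2.69. The 4 in CDK18KO were the class II genes Cd74, H2-Aa, H2-Ab1 and H2-Eb1. Of the other markers only Itgax and Zbtb46 were tested. By mean CPM, Flt3, Batf3, Ccr7 and Zbtb46 were below WT in both knockout groups. Itgax, Xcr1 and Siglech were above WT in both, and Clec9a and Cd209a were mixed. B and plasma cell markers summed to 2.60 to 9.26, 1.321 to 8.39 and 34.3 to 131 CPM, and neutrophil markers to 46.6 to 284, 6.21 to 98.2 and 377 to 552 CPM. Both of these were wholly higher in DKO than in the other groups. Erythroid markers summed to 589 to 2672, 538 to 1948 and 1752 to 10320 CPM in the same order. Their median was 2.49 in DKO, with 9 of 9 above WT and 8 at an unadjusted p under 0.05 by edgeR (5 called by DESeq2), and 0.15 in CDK18KO. Cholangiocyte markers summed to 165 to 410, 35.3 to 300.4 and 147 to 592 CPM. Their median was -2.05 in CDK18KO, with 7 of 7 below WT and 3 at that level (3 by DESeq2), and 0.41 in DKO. For stellate cells and fibroblasts, 10 of 11 markers were below WT in CDK18KO, 5 at that level (3 by DESeq2), and the medians were -1.11 in CDK18KO and -0.21 in DKO. Their summed levels were 447 to 1267, 47.9 to 924 and 470.5 to 1223 CPM. Endothelial markers (9 tested) had medians of 0.20 in CDK18KO and 0.52 in DKO and summed to 64.8 to 98, 26.8 to 180 and 56.1 to 213 CPM. Of all genes, 11.6% were higher and 5.31% lower in CDK18KO than in WT at an unadjusted p under 0.05 by edgeR. For DKO these shares were 13.7% and 5.22%. DESeq2 called 3.46% and 5.3% of all genes higher in CDK18KO and DKO. No marker in the lists of cell types passed edgeR's adjusted test against WT. The part of each of these cell types in the levels of the members was not tested.

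Of 28 other class I heavy chain genes listed, 10 were tested, and 9 of them had fitted values above 0 in both comparisons with WT. The other gene, Mr1, which presents vitamin metabolites and was named after its values were seen, differed by -0.08 in CDK18KO (0.39 without WT 5) and -0.13 in DKO (0.33 without WT 5). At an unadjusted p under 0.05 by edgeR 6 were higher in CDK18KO and 8 in DKO than in WT, with 0 lower and 0 called by the adjusted test. DESeq2 called 2 and 7. The medians were 1.69 and 2.36. Of all genes, 11.6% and 13.7% were higher at an unadjusted p under 0.05 by edgeR, and DESeq2 called 3.46% and 5.3% higher. H2-Q10, which encodes a secreted class I molecule of the liver, was at 2.97 to 70.8 CPM in WT, 27.3 to 635.5 CPM in CDK18KO and 50.8 to 855 CPM in DKO, with differences of 3.38 (SE 1.03, edgeR adjusted p = 0.163) and 3.99 (SE 1.08, adjusted p = 0.146). In DKO against WT, Fcgrt, the neonatal Fc receptor that also pairs with β2-microglobulin, differed by 2.44 (SE 0.67), H2-K2 by 2.27 (SE 0.63) and H2-T22 by 2.03 (SE 0.56), each with an edgeR adjusted p = 0.146.

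Peptide supply and loading genes outside the members were mixed. Of 18 tested, 5 were higher at an unadjusted p under 0.05 by edgeR in CDK18KO, and in DKO 4 were higher and 1 lower, with 0 past the adjusted test and 2 and 1 called by DESeq2. The medians were 0.37 and 0.41. Of all genes, 11.6% and 13.7% were higher at an unadjusted p under 0.05 by edgeR, and 5.31% and 5.22% lower. DESeq2 called 3.46% and 5.3% of all genes higher. Erap1, the peptidase that trims peptides in the endoplasmic reticulum, was above WT by 2.10 (SE 0.55, edgeR adjusted p = 0.162) for CDK18KO and by 1.84 (SE 0.57, adjusted p = 0.146) for DKO. Psme1, a subunit of the PA28 proteasome activator, differed by 1.69 (SE 0.40, edgeR adjusted p = 0.152) in CDK18KO and by 1.17 (SE 0.41) in DKO. Every CDK18KO library was above WT for Psme1, which held for 1.1% of all genes. In DKO the peptidase genes Lap3 and Thop1 differed by 0.76 (SE 0.35, 0.46 without DKO 2) and -0.96 (SE 0.34). The 17 genes of the standard proteasome had medians of 0.19 and -0.03, with 1 higher at an unadjusted p under 0.05 by edgeR in CDK18KO, 0 in DKO and 0 called by either tool. Those with the smallest p in DKO were Psma3 at -0.28, Psmf1 at 0.48, Psma2 at -0.20 and Psma6 at 0.23.

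Interferon signalling genes were read next because interferon γ is the classical inducer of the members. Ifng and Ifnb1 had 0 counts in all 14 libraries, 40521754 counts in all, which allows a level of up to 0.074 CPM over them by counting error. Of the 17 genes tested, 5 were higher in CDK18KO and 8 in DKO at an unadjusted p under 0.05 by edgeR, with 0 lower, 0 called by the adjusted test and 3 and 2 by DESeq2. The medians were 0.73 and 0.85. Of all genes, 11.6% and 13.7% were higher at an unadjusted p under 0.05 by edgeR, and DESeq2 called 3.46% and 5.3% higher. Irf1, a factor that acts on class I promoters, differed by 1.41 (SE 0.54, edgeR adjusted p = 0.212) and 1.55 (SE 0.56, adjusted p = 0.166). In DKO, Usp18, an interferon-induced brake on signalling, differed by 2.49 (SE 0.85), Stat2 by 1.69 (SE 0.60) and Jak1 by 0.93 (SE 0.32).

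Factors that bind class I promoters had medians of -0.04 and 0.01 over 12 genes. Ciita, the class II relative of Nlrc5, was higher at an unadjusted p under 0.05 by edgeR in CDK18KO and in DKO, where it differed by 2.93 (SE 0.99, edgeR adjusted p = 0.151) on 10 counts in WT and 35 in DKO. Nfyc, a subunit of the factor that binds the Y box, was lower in DKO by that measure at -1.14 (SE 0.42, adjusted p = 0.168). Every DKO library was below WT for Nfyc, and the share of all genes lower without overlap was not determined. Creb1 and Rfxap differed by -0.38 and -0.31. Polycomb repressive complex 2, which can silence class I genes, had medians of -0.18 and -0.20 over 8 tested genes. Its methyltransferase Ezh2 was at 403 ± 129, 306 ± 130 and 206 ± 87.6 CPM, a difference of -0.96 (SE 0.36, edgeR adjusted p = 0.176) in DKO, and its partners Jarid2 and Rbbp4 differed by -1.07 and -0.22. Another partner, Mtf2, differed by -1.36, a value that rests on WT 4 (867 CPM, against 97.8 to 198 CPM in the other WT libraries) and was -0.34 without it. The 7 genes of class I surface turnover had medians of -0.11 and 0.06. Among them Tmem127, Rnf139 and Marchf9 differed by 0.48, 0.48 and -0.69 in DKO, the last by -0.42 without DKO 2 and -1.07 without DKO 3. No gene of these 3 lists was called by edgeR's adjusted test or by DESeq2.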

How the data were processed

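Poly(A) RNA of 14 liver tumours was sequenced from its 3′ ends. The table deposited by the authors holds raw counts for each gene symbol, and 0 of its columns were left unused. Per the submitters' processing notes, the authors used STAR 2.7.11a, HTSeq 1.99.2, UMI-tools 1.1.2, FastQC and DESeq2 1.32.0. The notes list GRCh38 and mm10 with no role given. Per the labels' protocols, libraries came from 300.0 ng of RNA, kept the strand and carried a molecular identifier of 6 bases, read in single reads of 151 bases. The sources used here do not say whether reads with 1 identifier were collapsed, or which annotation and strand setting served for counting, so counts are treated as reads and intervals cover counting error only.

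Counts were fitted with edgeR 4.0.16 in R 4.3.3 (TMM factors, filterByExpr by group, glmQLFit and glmQLFTest, all 14 libraries in 1 fit). The 13997 genes kept hold 99.0% of all counts, and p-values are two-sided with Benjamini-Hochberg adjustment over them. The common biological coefficient of variation was 0.598. An SE was taken as the absolute log2 fold change over the square root of its F statistic. The fitting script was tested on simulated data. Shares within a library were compared by exact permutation tests, adjusted over 15 tests. Positions are from GENCODE M21 on GRCm38 and promoters from RefSeq on GRCm38.p6.

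The 10 members and the gene lists were chosen with earlier results of these data known. The text names all members, up to 4 genes per list with the smallest p in DKO against WT, Psmb5 to Psmb7, Irf1 and Ifng, and the 10 genes most like the members. Some genes that this rule names are not reported here. Differences in CDK18KO are added for some of these genes, and Psmb10 is added as the partner of Psmb7. The alternatives tried (their effect is in the closing section) were upper-quartile and RLE factors, DESeq2 1.42.0, no filter, a stricter filter (at least 10 counts in 4 libraries), limma 3.58.1 voom with sample weights, a fit on only the pair of groups compared, a block for the replicate number, leaving out the 3 libraries whose Y-linked genes exceeded 100 CPM, the hepatocyte marker mean as a covariate, and each library left out in turn.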

Additional observations from a re-analysis of the deposited data

Results flagged for a closer look

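Of the 30 sets of values examined (10 genes in 3 groups), 3 held a library far from the rest of its group by Dixon's criterion, where chance flags about 1 in 20 groups. H2-K1 was at 748 CPM in CDK18KO 2, against 189 to 315 CPM in the other 4 CDK18KO libraries. Tap2 was at 51.1 CPM in the same library, against 7.60 to 19.5 CPM in the others. Tapbp was at 19.9 CPM in WT 2, the deepest library, against 4.10 to 7.42 CPM in the other WT libraries. CDK18KO 2 also had the highest hepatocyte marker level of its group (9345 CPM), as did WT 2 in WT (2897 CPM).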

How the results depend on the processing

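Each of the 9 tested members kept a fitted difference above 0 in both comparisons with WT under every alternative that could be run for it. H2-T23 was below the filter in some of them. Genes called in CDK18KO against WT, DKO against WT and DKO against CDK18KO were 1, 1 and 0, and became 928, 1033 and 126 with DESeq2 and 173, 252 and 42 without the filter. For the comparisons with WT they became 0 and 0 with voom, with only the 2 groups compared and without the Y-high libraries (Y-linked genes above 100 CPM), and 4 and 2 with the hepatocyte covariate. Leaving out 1 library gave 0 to 74, 0 to 1 and 0 to 2, with 74 without CDK18KO 1. Members called, 0 in the main test, became 3 and 6 with DESeq2 and 2 in DKO against WT without the filter. Whether the replicate numbers pair the samples was not settled. Over 13 same-numbered pairs the correlation of deviations ran from -0.232 to 0.654, with 6 over 0.1. Libraries with different numbers were not compared in this way, so these values cannot show or exclude a pairing. With the replicate number as a block, edgeR called 297 and 438 genes and 1 and 4 members against WT, and H2-T23 in DKO against CDK18KO was -0.12. With the hepatocyte covariate the median over the members was 0.79, 0.46 and -0.40 in the 3 comparisons, and in the last H2-T23 was -0.92, Tap1 -0.0197, Tapbp -0.58 and Psmb8 -0.40. With 1 library left out, the median was 1.44 to 2.12, 1.77 to 2.53 and 0.18 to 0.83 in the 3 comparisons. Tapbp in DKO against CDK18KO (0.03) was -0.14 without the Y-high libraries and -0.41 to 1.02 with 1 library left out, and voom gave 1.27 for Tapbp, 1.14 for B2m and 1.11 for H2-D1 there. In the same comparison with 1 library left out, Tap2 ran from -0.73 to 0.19, Psmb8 from -0.26 to 0.83, H2-T23 from -0.68 to 0.79 and Psmb9 from -0.90 to 0.0033. The cause of these shifts was not tested. Depth limits H2-T23 and Nlrc5, with 8 and 6 counts over WT.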
